A study of Homo sapiens with 6 samples.

Results

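The 42 genes described here encode proteins that build the mitotic spindle, hold chromosomes on it at the kinetochore, and start and end cell division. They were chosen by gene symbol for their part in mitosis, with earlier results of these data known, and all 42 were found among the 60605 genes of the deposited table. Their mRNA levels were measured by sequencing of poly(A) RNA in MDA-MB-231, a line of triple-negative breast cancer cells that lack the receptors for oestrogen and progesterone and amplified HER2. The 3 shControl libraries came from cells with a control hairpin, and the 3 shPUS1 libraries came from cells with a hairpin against PUS1, an enzyme that turns uridine into pseudouridine in tRNA and other RNAs. Per the study's methods, the hairpins were carried by pLKO.1 lentiviral vectors and the cells were selected with puromycin. The deposited labels give all shPUS1 libraries the same knockdown number, and the sources used here do not say which hairpin it stands for. Whether replicates of a group came from separate selections is also not stated in these sources. The p-values therefore measure only the spread between these libraries. The samples were bulk cultures, in which fewer cells in mitosis and less RNA per mitotic cell cannot be told apart.

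Most of these genes are transcribed in a wave that starts in S phase and peaks when cells are ready to divide, and their mRNAs and proteins are cleared after division. Cyclin-dependent kinase CDK1 with cyclin A or cyclin B starts mitosis. The spindle is then built by motor proteins and microtubule-binding proteins, the kinetochore ties each chromosome to it, and the spindle checkpoint holds the anaphase-promoting complex back until all chromosomes are attached. In quiescent cells the genes are repressed through the DREAM complex, which binds a promoter sequence called the cell cycle genes homology region (CHR), and in dividing cells they are activated through B-MYB, FOXM1 and NF-Y, the factor that binds CCAAT boxes.

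Library totals lay between 14241505 and 19625998 estimated counts. Levels are given as CPM, which are counts scaled to a common library size after correction with TMM factors, and comparisons used the quasi-likelihood test of edgeR with Benjamini-Hochberg adjustment over all genes tested. The targeted gene, PUS1, stood at 14.5, 27.5 and 12.1 CPM in shControl replicates 1, 2 and 3 and at 6.57, 5.47 and 5.37 CPM in the shPUS1 replicates, with every shPUS1 library below every shControl library (log2 fold change -1.64, edgeR adjusted p = 0.0462). PUS1 no longer passed the test when shControl replicate 1 was left out (edgeR adjusted p = 0.0905) or when shPUS1 replicate 1, 2 or 3 was (edgeR adjusted p = 0.208, 0.253 and 0.192), with a log2 fold change of -1.78 to -1.59 in these cases. Replicate 2 of shControl stood apart from the rest. Across genes, Pearson's r of its log2 CPM was 0.951 and 0.952 with the other shControl replicates, against 0.981 between those, and 0.987 to 0.991 between shPUS1 libraries. The plan for this gene group set each comparison to be made with all 6 libraries and with the 5 libraries left without shControl replicate 2. Markers of the cell line were present, with summed levels of 4935 to 6497 CPM in shControl and 3796 to 4006 CPM in shPUS1 for VIM, CD44, AXL, CAV1, LGALS1 and S100A4. Of these 6, edgeR called 0 with 6 libraries, where 4 were lower at an unadjusted p under 0.05 and 3 were lower with DESeq2, and it called 3 lower and 0 higher with 5 libraries, with median log2 fold changes of -0.46 and -0.31. The 10 markers of other cell types summed to 9.86 to 14.4 CPM in shControl and 14.97 to 17.7 CPM in shPUS1. Of these, CD3E was at 0 in all libraries and ESR1 and PGR were at or below 0.590 CPM. LUM, a matrix gene of fibroblasts, was the only marker among the 5 of 10 that passed the filter on low counts to be called, with 0.157 to 1.11 CPM in shControl and 3.45 to 4.65 CPM in shPUS1 (log2 fold change 2.82, edgeR adjusted p = 0.0462), while DCN, another such gene, stayed at or below 0.413 CPM. EPCAM, at 5.45 to 7.81 CPM, was the highest of the 10 in every library. The part of these markers in the members' values was not tested.

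All 42 members passed the filter on low counts, with 122 to 17826 estimated counts per gene and library. Per kilobase of exonic length they spanned a wide range, from a mean of 3.62 FPKM for HMMR to 139 FPKM for TPX2, with a median of 31.4 FPKM.

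In the comparison of all 6 libraries, HMMR and CCNA2 were lower in shPUS1 than in shControl, and no other member passed the test. HMMR, a protein of the spindle that binds microtubules and hyaluronan, had 33.1% of its shControl level, and CCNA2, which encodes cyclin A2, had 45.2%. The count of 2 of 42 members lower at an edgeR adjusted p under 0.05 stands beside 0.841% of all 14748 genes tested. No member was higher, where 1.74% of all genes were. For both members that fell, the log2 fold change was also below -1. Of all genes, 0.481% both passed the test and changed by this much in the lower direction, and 0.888% in the higher direction. The remaining members mostly lay on the same side of 0. The log2 fold change was below 0 for 36 of the 42, their median was -0.38, and the median of all genes tested was -0.03. At an unadjusted p under 0.05, 21 members were lower and 0 were higher, where 12.8% of all genes were lower and 12.6% higher. All 3 shPUS1 libraries lay below all 3 shControl libraries for 23 members and above them for 0, while 17.3% and 18.8% of all genes had groups that did not overlap in these directions. DESeq2 called 10 members lower and 0 higher, where 6.42% of the 13030 genes to which it gave an adjusted p were lower and 8.23% higher. The 10 were HMMR, CCNA2, CCNB2, NUF2, MAD2L1, SPC24, AURKA, ANLN, BIRC5 and NDC80. Limma with weighted libraries called 12 members lower and 1 higher, FOXM1, where 9.48% of all genes were lower and 11.5% higher. In that fit shControl replicate 2 had a weight of 0.101 and the other libraries had 0.715 to 4.08, so it counted for little. With 1 library left out, the count of lower members was 8 without shControl replicate 2, 4 without shControl replicate 3, and 0 without shControl replicate 1 or any shPUS1 replicate. Over all genes, edgeR called 380 in either direction with 6 libraries. It called 2813, 474 and 11 without shControl replicate 2, 3 or 1, and 11, 6 and 0 without shPUS1 replicate 1, 2 or 3. Few or no genes at all were called where no member was.

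Without shControl replicate 2, the log2 fold change lay closer to 0 for 34 of the 42 members, and more of them passed the test. HMMR, CCNA2, CCNB2, NUF2, MAD2L1, SPC24, AURKA and ANLN were lower in shPUS1 and FOXM1 was higher. These 8 lower and 1 higher of 42 members stand beside 8.79% of all 15130 genes lower and 9.8% higher in the same comparison, so the share of members called higher was below the background and the share called lower above it. Of the members called, only HMMR also passed an absolute log2 fold change of 1. Of all genes, 1.66% passed both the test and this fold change in the lower direction, and 1.63% in the higher direction. At an unadjusted p under 0.05, 19 members were lower and 2 higher, with 17.2% and 17.3% of all genes. Of the members, 33 had a log2 fold change below 0, with a median of -0.23 against -0.02 for all genes. The log2 fold changes were higher than in the 6-library comparison for 39 of the 42 members and had the other sign for PLK1, INCENP and PRC1. When a shPUS1 library was left out as well, the count of lower members was 2 without replicate 1 or 2, and 5 without replicate 3. Over all genes, 961, 1135 and 1818 were called in either direction without shPUS1 replicate 1, 2 or 3, against 2813 with the 5 libraries. HMMR and CCNA2 passed the test in each of these, while CCNB2, NUF2, MAD2L1, SPC24, AURKA and ANLN missed it in 1 or more, with edgeR adjusted p up to 0.137 for AURKA without shPUS1 replicate 2. The biological coefficient of variation, the spread between replicates that edgeR estimates across genes, was 0.22 with 6 libraries and 0.11 with 5.

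**Figure D1:**
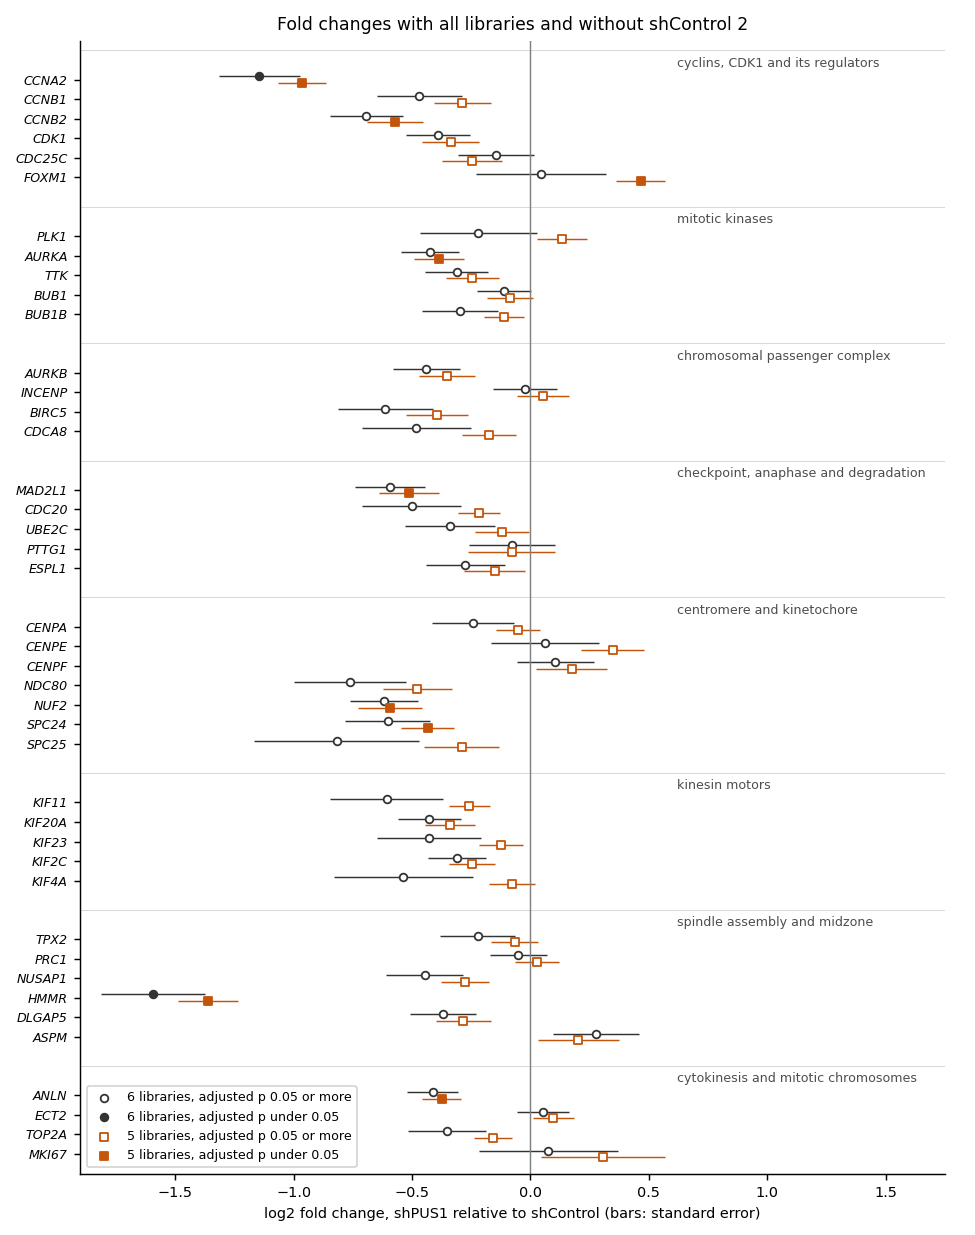
Log2 fold change of each member (x axis, shPUS1 relative to shControl, bars give the standard error) by role (y axis), with 6 libraries (circles) and without shControl replicate 2 (squares). Filled symbols have an edgeR adjusted p under 0.05. HMMR and CCNA2 lie farthest below 0 in both comparisons, and FOXM1 is the only filled symbol above 0.

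For most members the same library was the highest. For 36 of the 42, shControl replicate 2 was the highest of all 6 libraries, where this was so for 34.4% of all genes tested. Against the mean of shControl replicates 1 and 3, replicate 2 was at 1.37-fold for the median member, with a range from 0.814-fold for CDC25C to 2.34-fold for SPC25, and at 1.00-fold for the median of all genes tested. Replicate 2 of shPUS1 was the lowest library for 27 members, where this was so for 16.2% of all genes tested. The summed level of the 42 genes was 7585, 10017 and 7676 CPM in shControl replicates 1, 2 and 3. It was 7043, 6748 and 7084 CPM in the shPUS1 replicates. The shControl sums were all above the shPUS1 sums, with replicate 2 farthest from them. Replicates also agreed less in shControl, with a median coefficient of variation of 20.2% over the members, than in shPUS1, with 7.06%. Over all genes tested the medians were 22.1% and 8.42%.

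**Figure D2:**
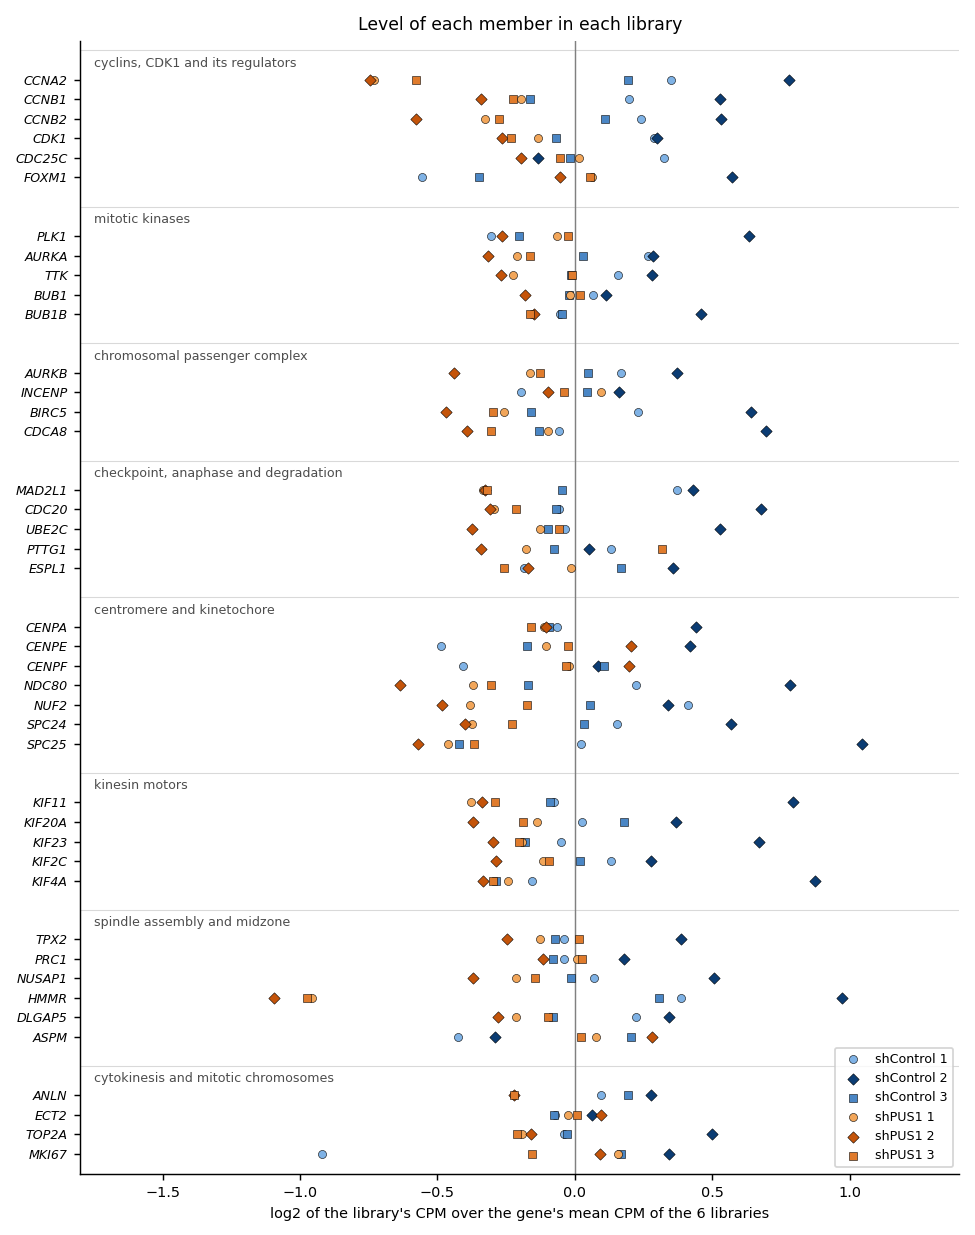
Level of each member in each library, as log2 of the library's CPM over the gene's mean CPM of the 6 libraries (x axis), by role (y axis). Blue symbols are shControl and orange symbols shPUS1 libraries, and the dark blue diamonds of shControl replicate 2 lie farthest right for 36 of the 42 genes.

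HMMR stood at 18.7, 27.9 and 17.6 CPM in shControl replicates 1, 2 and 3 and at 7.34, 6.68 and 7.26 CPM in the shPUS1 replicates. The lowest shControl library was far above the highest shPUS1 library, and the gap did not need shControl replicate 2. The log2 fold change was -1.59 (SE 0.22, edgeR adjusted p = 0.0248) with 6 libraries and -1.36 (SE 0.13, edgeR adjusted p = 0.000662) with 5. HMMR (ENSG00000072571) lies at 163460203 to 163491941 on the plus strand of chromosome 5 in the deposited table. It was the member with the lowest FPKM, and its values rested on 122 to 132 estimated counts per shPUS1 library.

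CCNA2 stood at 143, 193 and 129 CPM in shControl replicates 1, 2 and 3 and at 67.7, 67.0 and 75.3 CPM in the shPUS1 replicates. The groups were well apart, and the shPUS1 replicates lay close together. On the log2 scale the difference was -1.15 (SE 0.17, edgeR adjusted p = 0.0318) with 6 libraries and -0.96 (SE 0.10, edgeR adjusted p = 0.00113) with 5. CCNA2 (ENSG00000145386) lies at 121816444 to 121823883 on the minus strand of chromosome 4. Of its exonic bases, 9.08% overlap EXOSC9 on the other strand, and whether the counting used strand is not stated in the sources used here. With 6 libraries, the adjusted p of HMMR and CCNA2 missed 0.05 when shControl replicate 1 or any of the shPUS1 replicates was left out (0.0681 to 0.208 for HMMR and 0.0845 to 0.222 for CCNA2, edgeR), with log2 fold changes of -1.69 to -1.55 and -1.20 to -1.11. With 5 libraries both genes passed the test under all 13 settings run.

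**Figure D3:**
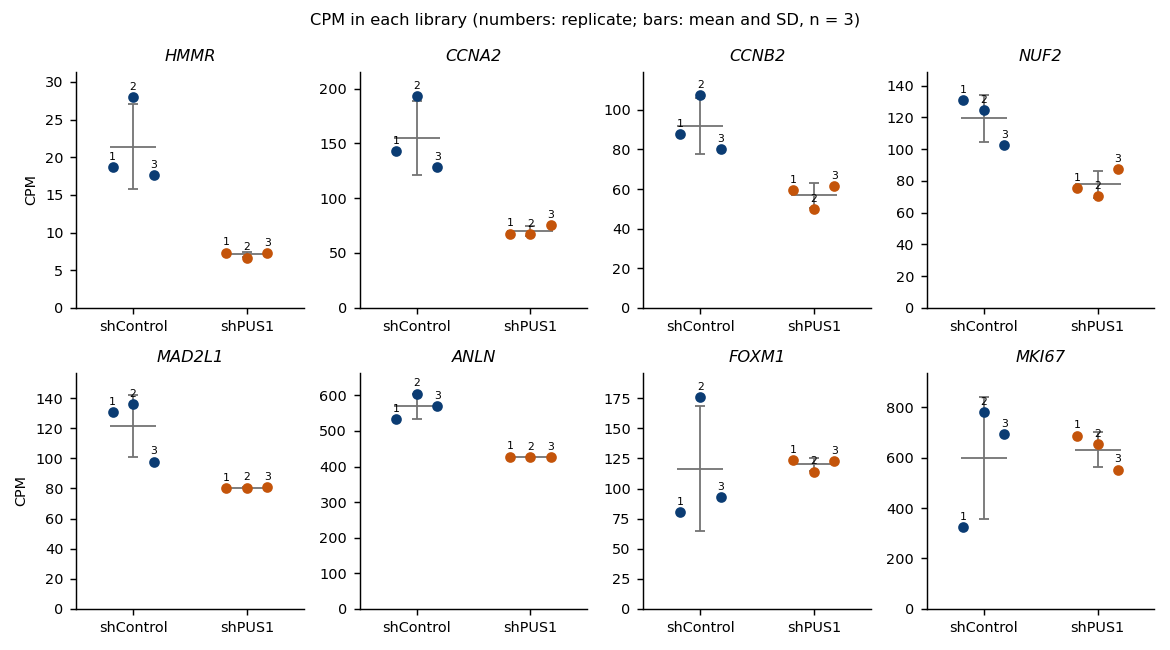
CPM (y axis) of 8 members in each library of shControl and shPUS1 (x axis). Points are libraries labelled with the replicate number, and the grey bars give the mean and SD of 3 libraries. In HMMR, CCNA2, CCNB2, NUF2, MAD2L1 and ANLN all shPUS1 points lie below all shControl points, while in FOXM1 and MKI67 they lie between shControl points.

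The promoters of the members were searched for the CHR element TTTGAA and the CCAAT box CCAAT on both strands, which on the printed strand also read TTCAAA and ATTGG. RefSeq windows of 300 bases (GRCh38.p14), from 250 bases before to 50 bases after a gene's start, were available for 36 of the 42 members, in 43 windows. AURKA, BIRC5, FOXM1, TPX2, TTK and UBE2C had no entry. The promoters of the 7 members with an entry that were lower in the 5-library comparison are shown because these genes passed the test. Capitals mark both motifs, which can overlap each other.
HMMR: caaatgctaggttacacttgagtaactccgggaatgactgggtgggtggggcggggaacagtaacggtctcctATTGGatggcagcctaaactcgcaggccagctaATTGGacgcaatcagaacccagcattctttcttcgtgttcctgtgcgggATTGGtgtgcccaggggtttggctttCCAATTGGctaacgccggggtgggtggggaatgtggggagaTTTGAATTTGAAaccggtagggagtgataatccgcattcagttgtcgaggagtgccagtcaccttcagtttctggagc
ANLN: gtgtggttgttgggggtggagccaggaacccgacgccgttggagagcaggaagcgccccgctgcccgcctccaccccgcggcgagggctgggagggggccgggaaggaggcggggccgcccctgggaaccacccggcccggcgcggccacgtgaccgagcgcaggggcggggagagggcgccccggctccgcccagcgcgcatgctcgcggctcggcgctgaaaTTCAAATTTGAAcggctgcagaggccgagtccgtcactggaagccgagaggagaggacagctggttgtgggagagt
CCNB2: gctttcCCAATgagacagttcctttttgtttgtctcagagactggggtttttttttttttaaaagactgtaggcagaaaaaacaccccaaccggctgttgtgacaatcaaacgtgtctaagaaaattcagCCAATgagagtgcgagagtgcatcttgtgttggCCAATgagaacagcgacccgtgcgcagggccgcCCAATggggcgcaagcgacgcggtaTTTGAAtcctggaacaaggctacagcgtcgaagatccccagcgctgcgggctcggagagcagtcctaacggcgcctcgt
CCNA2: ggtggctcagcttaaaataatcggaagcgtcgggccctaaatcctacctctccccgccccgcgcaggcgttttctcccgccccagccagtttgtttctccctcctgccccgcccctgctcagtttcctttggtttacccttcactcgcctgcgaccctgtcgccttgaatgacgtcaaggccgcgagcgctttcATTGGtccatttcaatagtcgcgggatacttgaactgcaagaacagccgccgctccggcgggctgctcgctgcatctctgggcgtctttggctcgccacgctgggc
MAD2L1: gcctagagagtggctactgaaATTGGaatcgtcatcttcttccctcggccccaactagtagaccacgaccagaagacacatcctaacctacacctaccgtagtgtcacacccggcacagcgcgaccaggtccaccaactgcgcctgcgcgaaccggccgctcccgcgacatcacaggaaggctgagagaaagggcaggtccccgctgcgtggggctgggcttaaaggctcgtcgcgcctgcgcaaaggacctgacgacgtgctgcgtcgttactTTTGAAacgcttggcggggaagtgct
NUF2: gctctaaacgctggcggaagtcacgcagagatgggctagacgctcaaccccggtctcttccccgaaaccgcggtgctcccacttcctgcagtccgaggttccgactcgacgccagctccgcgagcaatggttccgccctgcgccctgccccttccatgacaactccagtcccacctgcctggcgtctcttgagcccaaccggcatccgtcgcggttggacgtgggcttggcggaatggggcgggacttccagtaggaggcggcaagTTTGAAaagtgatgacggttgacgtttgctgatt
SPC24: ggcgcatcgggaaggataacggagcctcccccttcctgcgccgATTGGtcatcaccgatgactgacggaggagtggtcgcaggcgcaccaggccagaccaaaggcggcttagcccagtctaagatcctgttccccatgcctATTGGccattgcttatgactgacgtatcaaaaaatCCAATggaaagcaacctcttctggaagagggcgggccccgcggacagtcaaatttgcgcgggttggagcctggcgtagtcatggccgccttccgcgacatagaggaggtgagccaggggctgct

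The windows are chr5:163460382-163460681 for HMMR, chr7:36389612-36389911 for ANLN, chr15:59104896-59105195 for CCNB2 and chr1:163321704-163322003 for NUF2, all on the plus strand. They are chr4:121823834-121824133 for CCNA2, chr4:120066799-120067098 for MAD2L1 and chr19:11155733-11156032 for SPC24, on the minus strand. HMMR holds 2 adjoining CHR elements, the first at -28 from the start site, and 5 CCAAT boxes, of which the one at -69 and the one at -66 overlap. ANLN likewise holds 2 adjoining CHR elements, at -26 and -20, on opposite strands, and no CCAAT box. CCNB2 holds a CHR element at -29 and 4 CCAAT boxes. CCNA2 holds a CCAAT box at -56 and no match to TTTGAA, and SPC24 holds 3 CCAAT boxes and no match to TTTGAA. In MAD2L1 and NUF2 the CHR element lies after the start site, at 25 and 17. The 7 promoters thus share no single arrangement of the motifs.

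Over all members with an entry, 27 of 36 genes held TTTGAA and 30 of 36 held CCAAT, and 23 of 36 held both. By window, the shares were 69.8% of the 43 member windows for TTTGAA and 79.1% for CCAAT, beside 15.2% and 34.6% of all 35116 windows. The members also differed from all windows in where the matches lay. TTTGAA began within the 50 bases before the start site in 39.5% of member windows and in 2.56% of all windows. CCAAT began between 100 and 50 bases before it in 60.5% of member windows and in 12.9% of all windows. In the windows of DNA replication and S phase genes, TTTGAA was found in 2.17% and CCAAT in 56.5%. Of the members lower in the 5-library comparison, 5 of 7 held TTTGAA and 5 of 7 held CCAAT, and of the other members 22 of 29 and 25 of 29. A match describes these letters in the window and says nothing of the binding of a factor in these cells.

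**Figure D4:**
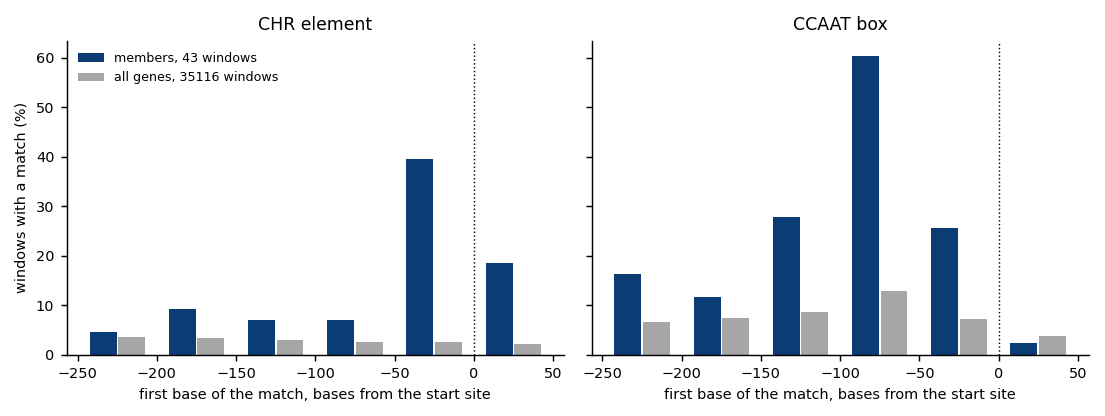
Share of promoter windows (y axis, %) in which a CHR element (left) or a CCAAT box (right) begins in each stretch of 50 bases (x axis, distance from the start site). Blue bars are the 43 member windows and grey bars all 35116 windows, and the blue bars are tallest just before the start site for the CHR element, at 39.5%, and from 100 to 50 bases before it for the CCAAT box, at 60.5%.

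Among the cyclins, CDK1 and their regulators, 5 of 6 members had a log2 fold change below 0 in either comparison. CCNB2, the cyclin B of the Golgi, stood at 87.8, 107 and 80.1 CPM in shControl replicates 1, 2 and 3 and at 59.3, 49.7 and 61.3 CPM in the shPUS1 replicates. Its log2 fold change was -0.69 (SE 0.15, edgeR adjusted p = 0.0575) with 6 libraries and -0.57 (SE 0.12, edgeR adjusted p = 0.0138) with 5. The groups did not overlap. In edgeR with the filter on low counts CCNB2 missed the threshold with 6 libraries, and it passed with the same libraries in edgeR with no filter, in DESeq2 and in limma on FPKM or with weighted libraries, at adjusted p of 0.0193, 0.00336, 0.0462 and 0.00792. CCNB1, the cyclin B that drives entry into mitosis, stood at 339, 427 and 265 CPM in shControl and 258, 233 and 254 CPM in shPUS1. CDK1, the kinase itself, stood at 307, 309 and 239.8 CPM in shControl and 229, 209 and 214 CPM in shPUS1. In both genes the lowest shControl library was replicate 3, which lay close to the highest shPUS1 library, and neither passed the test (CCNB1 log2 fold change -0.29 and edgeR adjusted p 0.130 with 5 libraries, CDK1 -0.34 and 0.0815). CDC25C, the phosphatase that activates CDK1, was the only one of the 6 genes with shControl replicate 2 as the lowest shControl library, at 30.7 CPM, and its groups overlapped.

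FOXM1, the transcription factor that activates many genes of mitosis, went the other way. It stood at 80.4, 176 and 93.1 CPM in shControl replicates 1, 2 and 3 and at 124, 114 and 123 CPM in the shPUS1 replicates. The shPUS1 libraries were above shControl replicates 1 and 3 and below replicate 2, so the result turned on that library. With all libraries the log2 fold change was 0.04 (SE 0.28, edgeR adjusted p = 0.930), and with 5 libraries it was 0.46 (SE 0.10, edgeR adjusted p = 0.0177). Without shControl replicate 1 or 3, and with replicate 2 kept, it was -0.17 and -0.10. In the 5-library comparison the edgeR adjusted p was 0.0856 without shPUS1 replicate 1 and 0.0503 without shPUS1 replicate 3. Of the exonic bases of FOXM1, 15.9% overlap ITFG2 on the other strand.

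Of the 5 mitotic kinases, 1 passed the test, in the 5-library comparison. AURKA, the Aurora kinase of the spindle poles, stood at 248, 251 and 210.3 CPM in shControl and 178, 166 and 184 CPM in shPUS1. The groups did not overlap, and the log2 fold change was -0.43 (edgeR adjusted p = 0.0922) with 6 libraries and -0.39 (edgeR adjusted p = 0.0365) with 5. TTK, the kinase that starts the checkpoint at unattached kinetochores, stood at 109, 119 and 96.8 CPM in shControl and 83.7, 81.2 and 97.0 CPM in shPUS1. Here shPUS1 replicate 3 was level with shControl replicate 3, and the groups overlapped. BUB1, BUB1B and PLK1 had log2 fold changes of -0.09, -0.11 and 0.13 with 5 libraries, none past the test. PLK1, the kinase that acts on centrosomes and kinetochores, was at 178 CPM in shControl replicate 2 and at 93.0 to 113 CPM in the other 5 libraries.

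The chromosomal passenger complex corrects faulty attachments at the kinetochore and then moves to the midzone of the spindle. Its kinase AURKB stood at 91.2, 105 and 83.8 CPM in shControl and 72.4, 59.8 and 74.3 CPM in shPUS1. BIRC5, which encodes survivin, stood at 147, 195 and 112 CPM in shControl and 105, 90.3 and 102 CPM in shPUS1. For both the shPUS1 libraries lay below all shControl libraries, and neither passed the edgeR test (log2 fold change -0.35 and edgeR adjusted p 0.0714 for AURKB, -0.39 and 0.0697 for BIRC5, with 5 libraries). With 6 and 5 libraries, DESeq2 called BIRC5 (DESeq2 adjusted p = 0.0493 and 0.0485) and not AURKB (DESeq2 adjusted p = 0.0634 and 0.0620). INCENP, the scaffold of the complex, was at 81.4 to 104 CPM in shControl and 87.1 to 99.5 CPM in shPUS1. The ratio of AURKB to INCENP in FPKM was 1.99 ± 0.246 (SD, n = 3) in shControl and 1.48 ± 0.134 (SD, n = 3) in shPUS1, with no overlap of the groups (exact two-sided permutation test of log2 ratios, p = 0.1, the smallest that 3 libraries against 3 allow). The ratio of BIRC5 to INCENP was 1.88 ± 0.454 (SD, n = 3) and 1.25 ± 0.0514 (SD, n = 3), with the same exact p. Of 14 such ratios between members, 6 reached this exact p, with a Benjamini-Hochberg value of 0.233 over the 14.

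In the checkpoint and anaphase group, MAD2L1 passed the test without shControl replicate 2. MAD2L1, the MAD2 protein that blocks the anaphase-promoting complex, stood at 131, 136 and 97.8 CPM in shControl and 80.1, 80.5 and 80.9 CPM in shPUS1. The log2 fold change was -0.59 (edgeR adjusted p = 0.0693) with 6 libraries and -0.51 (edgeR adjusted p = 0.0266) with 5, and the shPUS1 libraries differed by less than 1 CPM. CDC20, the activator that MAD2 holds back, stood at 142, 237 and 141 CPM in shControl and 121, 119.6 and 128 CPM in shPUS1. Its groups did not overlap, and the log2 fold change of -0.22 (edgeR adjusted p = 0.119, 5 libraries) did not pass the test. UBE2C, the ubiquitin-conjugating enzyme of the complex, PTTG1, which encodes securin, and ESPL1, which encodes separase, had log2 fold changes of -0.15 to -0.08 with 5 libraries and groups that overlapped.

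Of the 7 centromere and kinetochore members, 2 passed the test with 5 libraries. NDC80, NUF2, SPC24 and SPC25 form the NDC80 complex, the part of the kinetochore that grips microtubules. NUF2 stood at 131, 125 and 102 CPM in shControl and 75.6, 70.5 and 87.3 CPM in shPUS1, and SPC24 at 24.1, 32.1 and 22.1 CPM in shControl and 16.7, 16.4 and 18.5 CPM in shPUS1. Both passed the test with 5 libraries (log2 fold change -0.59 and edgeR adjusted p 0.0210 for NUF2, -0.43 and 0.0319 for SPC24) and not with 6 (0.0615 and 0.0978). NDC80 stood at 139.7, 206 and 107 CPM in shControl and 92.8, 77.0 and 96.9 CPM in shPUS1, and its log2 fold change of -0.48 had an edgeR adjusted p of 0.0518 with 5 libraries. SPC25 was at 35.4 CPM in shControl replicate 2 and at 11.5 to 17.4 CPM in the other 5 libraries, and its groups overlapped. Within the complex, the FPKM ratio of NUF2 to NDC80 was 0.882 ± 0.211 (SD, n = 3) in shControl and 0.927 ± 0.0571 (SD, n = 3) in shPUS1 (exact two-sided permutation test, p = 1). The kinetochore motor CENPE and the protein CENPF of the outer kinetochore had log2 fold changes above 0 in both comparisons, 0.35 and 0.17 with 5 libraries (edgeR adjusted p = 0.103 and 0.443), and CENPA, the histone of the centromere, had -0.05.

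All 5 kinesin motors had log2 fold changes below 0 in both comparisons, and none passed the test. KIF11, the motor that pushes the spindle poles apart, stood at 153, 279 and 151 CPM in shControl and 124, 127 and 131 CPM in shPUS1. KIF20A, which carries the passenger complex to the midzone, stood at 155, 196 and 172 CPM in shControl and 138, 118 and 133 CPM in shPUS1. The groups did not overlap in either gene. With 5 libraries the log2 fold changes were -0.26 (edgeR adjusted p = 0.0694) for KIF11 and -0.34 (edgeR adjusted p = 0.0554) for KIF20A. KIF2C, a microtubule depolymerase, KIF23, a motor of the midzone, and KIF4A, a chromosome motor, ranged from -0.25 to -0.08.

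Among the proteins of spindle assembly and the midzone, HMMR stood apart from its partners. TPX2, which activates AURKA on the spindle, was at 479 to 658 CPM in shControl and 425 to 508 CPM in shPUS1, with a log2 fold change of -0.07 (edgeR adjusted p = 0.670) with 5 libraries. The FPKM ratio of HMMR to TPX2 was 0.0359 ± 0.00271 (SD, n = 3) in shControl and 0.0140 ± 0.000814 (SD, n = 3) in shPUS1, and the groups did not overlap (exact two-sided permutation test, p = 0.1). The ratio of CCNA2 to CDK1 did not overlap either, with 0.776 ± 0.113 (SD, n = 3) in shControl and 0.462 ± 0.0404 (SD, n = 3) in shPUS1 (exact two-sided permutation test, p = 0.1). NUSAP1, which bundles microtubules, stood at 175, 236 and 165 CPM in shControl and 144, 129 and 151 CPM in shPUS1, and its log2 fold change of -0.28 (edgeR adjusted p = 0.0901, 5 libraries) did not pass. Of the stretches of 100 bases in its transcripts, 47.1% occur also in AC087721.2, so reads of these genes may not be told apart. The same holds for 45.3% of those of PRC1, the midzone cross-linker, with AC068831.7. DLGAP5, PRC1 and ASPM, a spindle pole protein, had log2 fold changes of -0.28, 0.03 and 0.20 with 5 libraries, and none passed the test.

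Of the members that act in cytokinesis or on mitotic chromosomes, ANLN passed the test without shControl replicate 2. ANLN, the anillin of the contractile ring, stood at 533, 605 and 571 CPM in shControl and 428, 428 and 427 CPM in shPUS1. The shPUS1 libraries were almost level, and the log2 fold change was -0.41 (edgeR adjusted p = 0.0766) with 6 libraries and -0.37 (edgeR adjusted p = 0.0182) with 5. TOP2A, the topoisomerase that untangles sister chromatids, stood at 642, 934 and 647 CPM in shControl and 579, 591 and 570.2 CPM in shPUS1, and did not pass the test. MKI67, the proliferation marker Ki-67 that coats mitotic chromosomes, stood at 325, 781 and 692 CPM in shControl and 687, 655 and 552 CPM in shPUS1. Here shControl replicate 1 was the low library, at less than the level of any other, and replicates 2 and 3 were level with or above shPUS1. For MKI67 the log2 fold change was 0.31 (SE 0.26, edgeR adjusted p = 0.439) with 5 libraries and -0.13 when shControl replicate 1 was left out as well. ECT2, the exchange factor that starts furrowing, had a log2 fold change of 0.05 with 6 libraries, where the groups overlapped, and of 0.10 with 5, where they did not, and passed the test in neither.

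To set each member against the others in the same library, its log2 CPM was also taken relative to the median of the other 41 members. On this scale, which removes a shift that all members share, 6 of the 42 were lower and 5 higher without overlap between the groups. Of all genes tested, taken relative to the median of the members, 3.84% were lower and 33.7% higher without overlap. HMMR was at -2.81 ± 0.09 (SD, n = 3) in shControl and -3.99 ± 0.04 (SD, n = 3) in shPUS1, a difference of -1.18. CCNA2 was at 0.08 ± 0.09 (SD, n = 3) and -0.71 ± 0.05 (SD, n = 3), a difference of -0.79. For both genes shControl replicate 2, at -2.80 and -0.02, lay near the other shControl replicates, at -2.90 and -2.73 for HMMR and at 0.13 and 0.14 for CCNA2. NDC80, CCNB2, BIRC5 and SPC24 were also lower without overlap, by differences of -0.39 to -0.22, and BUB1, PRC1, ECT2, CENPE and FOXM1 were higher by 0.29 to 0.57. The exact permutation test of 3 libraries against 3 cannot give a p below 0.1, and these differences are given without a test.

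Further genes of the same processes were taken from lists fixed by name. Their counts stand beside 8.79% of all genes lower and 9.8% higher with 5 libraries. With 6 libraries these shares were 0.841% and 1.74% at an adjusted p, 12.8% and 12.6% at an unadjusted p under 0.05, and 6.42% and 8.23% with DESeq2. Of 32 other kinetochore and centromere genes, 1 was lower and 0 were higher in either comparison, with a median log2 fold change of -0.31 with 6 libraries and -0.06 with 5. That gene was CENPH, of the inner kinetochore, at 25.5, 20.3 and 19.2 CPM in shControl and 11.2, 10.8 and 13.2 CPM in shPUS1 (log2 fold change -0.94, edgeR adjusted p = 0.00689 with 5 libraries). HJURP, which loads CENPA, and CENPU, of the inner kinetochore, did not pass, at -0.31 and -0.44 with 5 libraries. Of 30 other spindle, centrosome and cytokinesis genes, 0 were called by edgeR with 6 libraries (9 lower and 0 higher at an unadjusted p under 0.05, and 6 lower with DESeq2), and 6 were lower and 1 higher with 5, with medians of -0.16 and -0.05. The kinesin KIF15 (-0.52, edgeR adjusted p = 0.0101), the kinase PBK (-0.66, edgeR adjusted p = 0.0228) and DEPDC1 (-0.46, edgeR adjusted p = 0.0159) were among the 6.

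Of 19 condensin and cohesin genes, 1 was lower and 2 were higher with 5 libraries, with a median of -0.02. SMC4, a condensin subunit, was the lower gene, at -0.36 (edgeR adjusted p = 0.0386), and WAPL and PDS5A, which release cohesin, were the higher genes, at 0.33 and 0.43 (edgeR adjusted p = 0.0314 and 0.0214). Of 22 genes of the anaphase-promoting complex and the checkpoint, 2 were lower and 1 was higher with 5 libraries. Their median was -0.29 with 6 libraries and -0.20 with 5, and 18 had a log2 fold change below 0 in either comparison. The subunits ANAPC13 and ANAPC16 were at -0.59 and -0.45 (edgeR adjusted p = 0.0145 and 0.0148), and the activator FZR1 was at 0.34 (edgeR adjusted p = 0.0294). The counts of genes called with 5 libraries are near the shares over all genes, and nothing is read from them about either list. With 6 libraries edgeR called 0 genes of both lists. At an unadjusted p under 0.05, 3 condensin and cohesin genes were lower and 0 higher, and 8 genes of the anaphase-promoting complex and the checkpoint were lower and 1 higher. With DESeq2 these counts were 1 and 0 for the first list and 2 and 1 for the second.

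Of 21 genes for DREAM, MuvB, E2F and NF-Y regulators, 4 were higher and 2 lower with 5 libraries, with a median of -0.008. With 6 libraries 1 was higher and 0 were lower, with a median of -0.07. At an unadjusted p under 0.05, 2 were then higher and 3 lower. The genes given next have the smallest unadjusted p with 5 libraries, and all of them were higher. E2F7, a repressor of the E2F family, stood at 149.7, 176 and 181 CPM in shControl and 288, 310.4 and 274 CPM in shPUS1. It was higher in both comparisons, with log2 fold changes of 0.78 (edgeR adjusted p = 0.0336) and 0.81 (edgeR adjusted p = 0.00342), and the groups did not overlap. RB1 and LIN52, a MuvB subunit, passed the edgeR test with 5 libraries and not with 6, higher at 0.42 and 0.45 (edgeR adjusted p = 0.0196 and 0.0278). Of 19 tested genes among G1 cyclins, CDK inhibitors and p53 targets, 2 were higher and 4 lower with 5 libraries, with a median of -0.13. With 6 libraries 1 was higher and 0 were lower, with a median of 0.07. CCND3, a G1 cyclin, was higher in both comparisons, at 0.64 (edgeR adjusted p = 0.0371) and 0.59 (edgeR adjusted p = 0.00441). CCNE1 was higher and CCNE2 lower with 5 libraries, at 0.75 and -0.83 (edgeR adjusted p = 0.0138 and 0.0286), and CCNE2 was at 44.5 CPM in shControl replicate 2 and at 3.56 to 7.79 CPM in the other 5 libraries.

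The 40 genes of DNA replication and S phase are transcribed ahead of most members. With 6 libraries all 40 had a log2 fold change below 0, with a median of -0.66. Of these, 0 passed the edgeR test, 23 were lower at an unadjusted p under 0.05, where 12.8% of all genes were, and 11 were lower with DESeq2, where 6.42% were. With 5 libraries the median was -0.27, close to that of the members, and 10 were lower and 1 was higher, beside 8.79% and 9.8% of all genes. RRM2, a subunit of ribonucleotide reductase, stood at 121, 380.0 and 120.0 CPM in shControl and 89.5, 88.4 and 82.1 CPM in shPUS1. Here shControl replicate 2 held the highest value, and the other shControl replicates were still above shPUS1. With 5 libraries the log2 fold changes were -0.48 (edgeR adjusted p = 0.00970) for RRM2 and -0.68 (edgeR adjusted p = 0.00663) for CDT1, the licensing factor of replication origins.

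**Figure D5:**
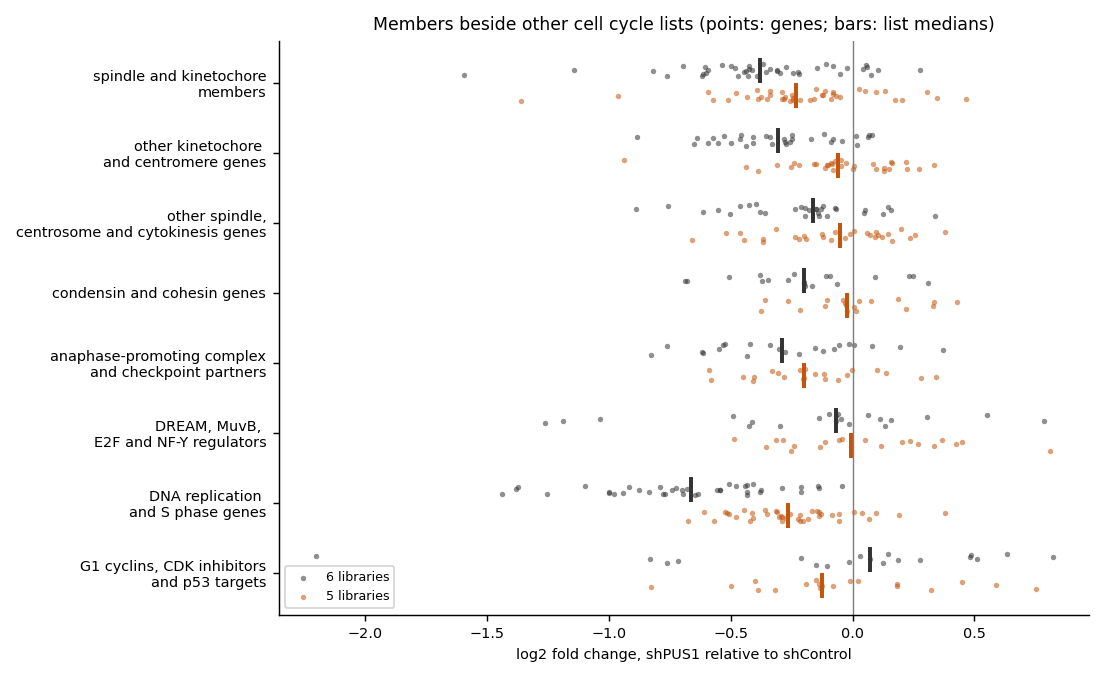
Log2 fold change (x axis, shPUS1 relative to shControl) of each gene (points) in the members and 7 other cell cycle lists (y axis), with 6 libraries (grey) and without shControl replicate 2 (orange). Vertical bars are list medians, which for the members are -0.38 and -0.23 and for DNA replication and S phase genes -0.66 and -0.27.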

How the data were processed

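Poly(A) RNA of 3 shControl and 3 shPUS1 libraries was analysed. Per the study's methods and the submitters' processing notes, reads were aligned with HISAT2 and counted with HTSeq 0.6.1, and the genome build, annotation and strandedness are not given in the sources used here. The deposited estimated counts were made by the authors without normalization, and 29.8% to 31.8% of those above 0 are not whole numbers. The deposited FPKM values were made by the authors from these counts per kilobase and library total. The coordinates of all 42 members overlap GENCODE release 29 (GRCh38), 15 with the same start and end.

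Counts were rounded, filtered with filterByExpr, scaled by TMM factors of 0.973 to 1.03 and tested with edgeR 4.0.16 (R 4.3.3). A prior count of 2 was used for the log2 CPM values only. Calls had an adjusted p under 0.05. DESeq2 1.42.0 and limma 3.58.1 (on voom values with sample weights and on log2(FPKM + 1) for genes whose mean FPKM reached 1) served as alternatives, beside size factors, library totals, no filter, a replicate block and leaving out each library. Figures used matplotlib 3.10.9. Genes were named by rule: CDK1, CCNB1, FOXM1 and MKI67, the 2 members of each role with the smallest p in either comparison, all called members, and up to 3 genes of each other list. Other genes are given to complete a group. One gene that the rule named is not reported here. The members and lists were chosen with earlier results of these data known. No per-sample column was left out.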

Additional observations from a re-analysis of the deposited data

How the results depend on the processing

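With 6 libraries, 2 members were lower and 0 higher. The count of lower members was 10 with DESeq2, 12 with voom and sample weights (1 higher), 6 with no filter on low counts and 0 with a replicate block. Leaving out each library gave 0 to 8 lower and 0 to 1 higher members. Over all genes, 380 were called in either direction in the main fit. This number was 1910 with DESeq2, 3090 with voom and sample weights, 1284 with no filter, 18 with the block and 0 to 2813 with a library left out. With 5 libraries, 8 were lower and 1 higher. The count of lower members was then 14 with library totals without TMM, 14 with limma on log2(FPKM + 1) and 13 with no filter (2 higher). It was 1 when an absolute log2 fold change of 1 was also required (0 higher). Over all genes, 2813 were called in either direction in the main 5-library fit. This number was 2893 with library totals, 2466 with limma on log2(FPKM + 1), 3575 with no filter and 497 with the fold change required. A replicate block gave 2 lower and 0 higher members, where 816 of all genes were called in either direction. With shControl replicate 2 gone, that block fit also went without its partner, shPUS1 replicate 2. Without shPUS1 replicate 2 and with no block, 2 members were lower and 1 was higher. What the block alone changes was not tested. Leaving out a further library gave 2 to 16 lower and 0 to 5 higher members. The median log2 fold change of the members stayed below 0 under all settings run, from -0.46 to -0.23 with 6 libraries and from -0.27 to -0.13 with 5, and it was -0.26 to -0.13 when a further library was left out. Where a lone shControl library remained, it was assumed to vary like the shPUS1 libraries.

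Among the 20 members named by rule, the log2 fold change reversed in 4 cases. The remaining members were not followed through these settings, and of them PLK1, INCENP and PRC1 changed sign without shControl replicate 2. With 6 libraries FOXM1 was at -0.17 without shControl replicate 1 and at -0.10 without shControl replicate 3, and MKI67 was at -0.22 without shControl replicate 1. With 5 libraries MKI67 was at -0.13 without shControl replicate 1. Without shControl replicate 2, FOXM1 and MKI67 were at 0.46 and 0.31, and MKI67 was at 0.95 when shControl replicate 3 was left out as well. For the 20 members named by rule, 218 values of the alternatives kept their side of the threshold with 6 libraries, 29 passed it newly and 10 no longer passed. With 5 libraries these numbers were 189, 22 and 28. The log2 fold change of PUS1 was -1.001 with limma on log2(FPKM + 1) (adjusted p = 0.0544), -1.55 with a replicate block (edgeR adjusted p = 0.0969) and -1.86 to -1.20 with a library left out, and edgeR adjusted p was 0.0905 without shControl replicate 1 and 0.192 to 0.253 without a shPUS1 replicate. Libraries that share a replicate number did not deviate together from their group means (correlation of the deviations over genes -0.05, -0.03 and -0.19 for numbers 1, 2 and 3), so the replicate block stands only as an alternative. The causes of these differences were not tested.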
